A study of Mus musculus with 15 samples.

Results

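The Hedgehog pathway genes described here are Shh, Ihh, Ptch1, Gli1, Gli2, Gli3, Hhip, Boc and Cdon, chosen by gene symbol, and all 9 were found among the 23244 gene entries of the series. RNA-Seq was performed on mouse optic tissue grown in SFEBq culture, in which embryonic stem (ES) cells of an Rx::GFP reporter line reaggregate and form an epithelium whose GFP marks cells of the eye field. GFP+ tissue was explanted at Day 10 and was either collected at once (Day 10 Rx::GFP+) or cultured under Fgf or Wnt/β-catenin stimulation until Day 12 or Day 15. For Day 12 +Fgf and Day 15 +Fgf the medium held 5 ng/mL bFgf and 10% fetal bovine serum (FBS). For Day 12 +Wnt and Day 15 +Wnt it held the GSK3 inhibitor CHIR99201, at 3 μM for the first 24 h and at 1 μM afterwards. Every group came from the same reporter line, kept as ES cells in medium with LIF and inhibitors that included CHIR99201 and aggregated in Matrigel. The labels call the +Fgf tissue neural retina and the +Wnt tissue retinal pigmented epithelium (RPE), and each of the 5 groups held 3 biological replicates, 15 libraries in all. Serum was listed for the +Fgf medium only, so that bFgf and serum cannot be told apart. No explants cultured without a stimulus were analysed here, so time in culture and stimulation cannot be told apart where a later group is compared with Day 10.

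In Hedgehog signalling a secreted ligand (Sonic hedgehog from Shh, Indian hedgehog from Ihh) binds the receptor Ptch1, and this releases the membrane protein Smo, which then acts through the Gli transcription factors. Gli1 is an activator, Gli3 works mainly as a repressor when no ligand is present, and Gli2 is the main first activator. Boc and Cdon are co-receptors, whereas Hhip and Ptch1 bind and sequester the ligand. Gli1, Ptch1 and Hhip are also classical target genes, so their transcripts are commonly read as a measure of pathway activity. In the developing eye the pathway takes part in splitting the eye field and in patterning the optic stalk and ventral retina, and retinal ganglion cells are a known source of Shh in the neural retina.

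Values are in normalized CPM, reads on a gene scaled to the size of the library. The libraries held 12556998 to 16175450 reads on genes, so that 1 read was worth 0.0620 to 0.0764 CPM. The tissue labels were checked against defining markers. Summed over 5 neural retina markers (Rax, Six3, Six6, Lhx2 and Sox2), the level was 1245 to 1432 CPM in the Day 10 and +Fgf libraries, 507 to 544 CPM in Day 12 +Wnt and 341 to 389 CPM in Day 15 +Wnt. The sum of 9 pigment epithelium markers was 5257 to 6809 CPM in the Day 15 +Wnt libraries and 237 to 307 CPM in the Day 15 +Fgf libraries. Pmel was the largest part of both, with means of 3686 and 113 CPM, and Dct held 768 and 66.9 CPM. Best1 held only 0 to 7 reads per library over the 5 groups. Rpe65, an enzyme of mature RPE, held at most 3 reads in each library of all 5 groups, so the +Wnt tissue lacked this marker at both days.

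Of the 9 genes, 6 had a RefSeq promoter sequence among those used here (assembly GRCm38.p6). The 250 bases before the annotated start are shown for Ptch1 and Hhip, the pair of ligand-binding targets that differed in opposite directions between the tissues at Day 15, and for Gli2, which held the only match to a motif searched. Each is written 5′ to 3′ on the strand of the gene, and capitals mark the Gli core motif.
Ptch1, chr13:63565736-63565985, minus strand: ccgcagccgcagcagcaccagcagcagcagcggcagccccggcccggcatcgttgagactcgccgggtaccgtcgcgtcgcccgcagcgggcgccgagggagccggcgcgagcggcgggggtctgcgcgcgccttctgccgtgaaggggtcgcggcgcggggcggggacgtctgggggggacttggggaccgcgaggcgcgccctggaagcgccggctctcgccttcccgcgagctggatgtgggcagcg
Hhip, chr8:80058009-80058258, minus strand: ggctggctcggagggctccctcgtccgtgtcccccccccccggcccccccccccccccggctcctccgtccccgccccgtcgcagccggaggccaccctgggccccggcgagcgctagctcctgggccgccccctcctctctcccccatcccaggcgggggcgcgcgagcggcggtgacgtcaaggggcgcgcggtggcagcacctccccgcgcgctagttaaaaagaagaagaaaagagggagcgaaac
Gli2, chr1:119053620-119053869, minus strand: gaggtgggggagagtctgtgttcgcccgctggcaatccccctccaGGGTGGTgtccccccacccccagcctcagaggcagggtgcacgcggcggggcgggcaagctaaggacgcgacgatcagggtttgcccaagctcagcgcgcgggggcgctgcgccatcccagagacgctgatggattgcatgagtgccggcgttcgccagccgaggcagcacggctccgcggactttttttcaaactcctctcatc
The Gli core was searched as ACCACCC and its reverse complement GGGTGGT, and the core of the TCF/LEF factors, which act in Wnt signalling, as ATCAAAG and CTTTGAT. The letters of these motifs do not overlap one another. The Gli core was present in 3.92% and the TCF/LEF core in 3.21% of all 32851 promoter windows of this length. Among the 6 windows of the members, Gli2 held a Gli core, read on the antisense strand and starting 205 bases before the transcript start (position -205), and no other match was found. The GC content was 78.4% for Ptch1, 76% for Hhip and 67.2% for Gli2, against a median of 52.4% over all windows, and there were 41, 28 and 22 CpG dinucleotides against a median of 6. The windows of Ihh and Gli3 were also above both medians (72% and 72.8% GC, 24 and 34 CpG), whereas that of Cdon was below both (42.8% GC, 1 CpG). The Ptch1 window lies inside the annotated gene, since other transcripts start farther upstream, but it holds no exon. Those of Cdon and Gli3 also lie inside their genes. The Cdon window begins at chr9:35451826, downstream of the annotated gene start at 35421128, and holds 31 bases of Cdon exon. Its composition is thus that of an internal start. All 250 bases of the Gli3 window lie in an exon of Gm6556.

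Groups were compared with limma on log2(CPM + 0.3), in 1 fit to all 15 libraries over the 13845 entries with at least 1 CPM in at least 3 libraries, and a gene was called at a Benjamini-Hochberg adjusted p under 0.05. Fold changes are on this scale, which understates the change of genes near 0. Shh and Ihh did not reach the filter, and 7 of the 9 genes were tested. From Day 10 to Day 12, 3 of the 7 genes were called in +Fgf, where 55.7% of all entries tested were called, and 3 of 7 in +Wnt, against 60.2%. From Day 10 to Day 15, 6 of 7 were called in +Fgf, against 72.6% of all entries, and 6 of 7 in +Wnt, against 79.8%. These 4 comparisons share the Day 10 libraries. Between Day 12 and Day 15, 5 of 7 were called in +Fgf and 5 of 7 in +Wnt, against 57.1% and 68.0% of all entries. Between +Fgf and +Wnt, 6 of 7 differed at Day 12 and 7 of 7 at Day 15, against 51.5% and 68.7%. Since 51.5 to 79.8% of all entries were called in these 8 comparisons, a call alone does not set a member apart.

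**Figure D1:**
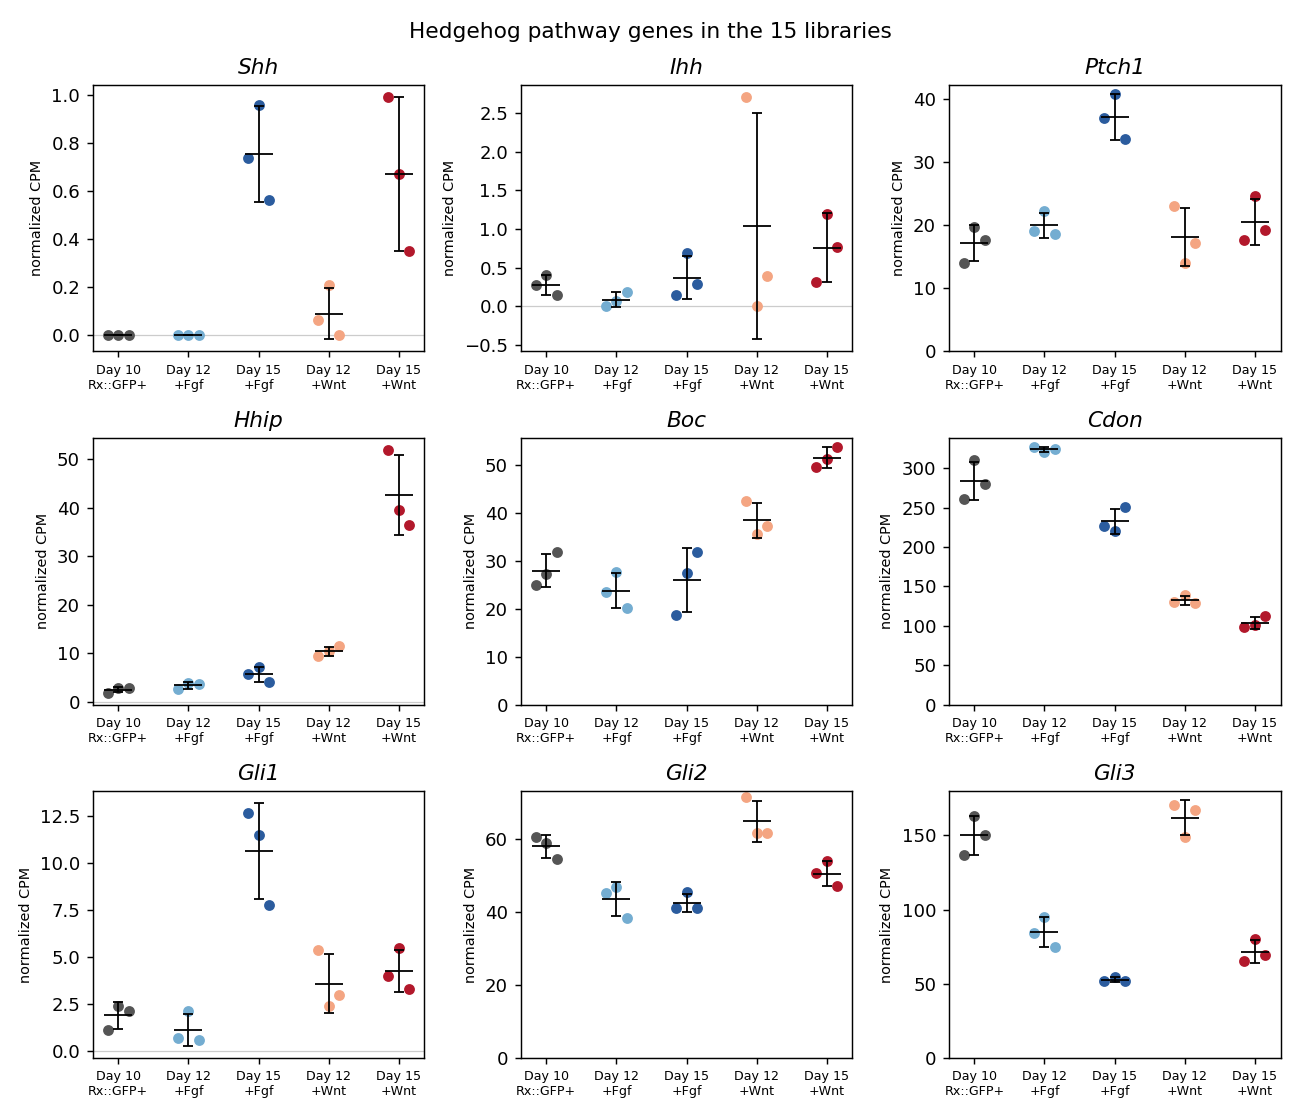
Normalized CPM of the 9 Hedgehog pathway genes (vertical axes, each with its own scale) in the 5 groups, where each point is 1 library and the bars show the mean ± SD of 3 libraries. Ptch1 and Gli1 were highest in Day 15 +Fgf, Hhip and Boc in Day 15 +Wnt, and Cdon was lower in both +Wnt groups than in the 3 other groups.

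Of the ligands, Shh was detected late and at a low level. It was listed at 0 in the 3 Day 10 and the 3 Day 12 +Fgf libraries. In Day 12 +Wnt the libraries held 1, 3 and 0 reads of Shh. In Day 15 +Fgf the values were 0.737, 0.962 and 0.565 CPM (10, 14 and 8 reads), and in Day 15 +Wnt 0.993, 0.671 and 0.351 CPM (16, 9 and 5 reads). All 6 Day 15 libraries were above the 9 earlier ones, and the Day 15 groups overlapped each other. Taking 3 reads per library as the floor, Shh was at least 3.57-fold higher in Day 15 +Fgf and at least 3.18-fold higher in Day 15 +Wnt than at Day 10, a bound that covers counting error only. With no filter on low values, limma gave Shh an adjusted p of 5.53e-06 for Day 15 +Fgf and of 1.03e-05 for Day 15 +Wnt against Day 10. The same fit put Day 15 +Fgf and Day 15 +Wnt apart by 0.16 on the log2 scale, with a 95% interval from -0.33 to 0.64 (adjusted p = 0.599). The Day 10 and Day 12 +Fgf libraries, all at 0, add no spread to this fit. Its p-values and interval for Shh may therefore overstate the precision. The exons of Shh overlap 9530036O11Rik and Gm26894 on the other strand. The strand setting of the counting is not given in the sources used here, and 9530036O11Rik held 0 to 2 reads per library, while Gm26894 was not analysed here.

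Ihh was near the limit of detection in most libraries. It was at 0.273, 0.401 and 0.153 CPM in Day 10, and at 0, 0.0637 and 0.192 CPM in Day 12 +Fgf. Day 12 +Wnt held 2.70, 0 and 0.397 CPM (43, 0 and 6 reads), so that replicate 1 alone set the high mean of that group. The Day 15 values were 0.147, 0.687 and 0.283 CPM in +Fgf and 0.31, 1.19 and 0.772 CPM in +Wnt. Neighbouring groups overlapped throughout the order of levels, and limma with no filter called Ihh in none of the 8 comparisons, with an unadjusted p under 0.05 in none of them either. Its smallest adjusted p was 0.138, for Day 12 +Fgf against Day 12 +Wnt. Dhh, which encodes the third ligand, Desert hedgehog, held at most 3 reads in each of the 15 libraries.

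Ptch1, the ligand receptor and a target of the pathway, overlapped among 4 groups and was higher in Day 15 +Fgf. Its values were 14.0, 19.7 and 17.6 CPM in Day 10, 19.1, 22.2 and 18.6 CPM in Day 12 +Fgf, and 23.1, 14.1 and 17.1 CPM in Day 12 +Wnt. In Day 15 +Fgf they were 36.9, 40.8 and 33.6 CPM, and in Day 15 +Wnt 17.6, 24.5 and 19.2 CPM. The 3 Day 15 +Fgf libraries lay above all 12 others, and the 4 remaining groups overlapped their neighbours. Ptch1 rose 1.85-fold from Day 12 to Day 15 in +Fgf (log2 difference 0.88 ± 0.16 SE, adjusted p = 0.000215), and was 1.82-fold higher in +Fgf than in +Wnt at Day 15 (0.86 ± 0.16, adjusted p = 0.000184). At Day 12 the difference between +Fgf and +Wnt was 0.16, with a 95% interval from -0.18 to 0.51 (adjusted p = 0.424). The change over time in +Wnt was 0.19 (adjusted p = 0.322), and without Day 12 +Wnt replicate 1, the highest of its group, it was 0.38 and passed the threshold (adjusted p = 0.0446). As in every comparison of these bulk samples, fewer cells that express a gene and less RNA per cell cannot be told apart.

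Hhip, the membrane-bound protein that sequesters the ligand, had the widest range of the 7 tested genes and, unlike Ptch1, was highest in Day 15 +Wnt. It was at 1.98, 2.81 and 2.90 CPM in Day 10 and at 2.60, 3.95 and 3.77 CPM in Day 12 +Fgf. Day 12 +Wnt held 9.56, 10.4 and 11.5 CPM, and Day 15 +Fgf 5.83, 7.28 and 4.17 CPM. Day 15 +Wnt held 51.8, 39.5 and 36.3 CPM. The 2 +Wnt groups thus overlapped no other group, while Day 10 and Day 12 +Fgf overlapped each other. Hhip rose 3.80-fold from Day 10 to Day 12 in +Wnt (log2 difference 1.93 ± 0.20 SE, adjusted p = 6.09e-07) and a further 3.94-fold by Day 15 (1.98 ± 0.20, adjusted p = 2.35e-07). Against Day 10, Day 15 +Wnt was 15.0-fold higher (3.90 ± 0.20, adjusted p = 1.9e-11). At Day 15 Hhip was 7.16-fold lower in +Fgf than in +Wnt (adjusted p = 2.32e-09), and at Day 12 it was 2.92-fold lower (adjusted p = 7.45e-06).

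Within +Fgf, Hhip rose 1.61-fold from Day 12 to Day 15 (log2 difference 0.68 ± 0.20 SE, adjusted p = 0.00869), so that both Hhip and Ptch1 rose in the tissue where Ptch1 was highest. This rise of Hhip kept its direction but missed the threshold when certain single libraries were left out. Without Day 12 +Fgf replicate 1 it was 0.51 (adjusted p = 0.0565) and without Day 15 +Fgf replicate 2 it was 0.50 (adjusted p = 0.0560). With quantile normalization it was 0.39 (adjusted p = 0.114). The difference between Day 10 and Day 12 +Fgf was 0.38 (adjusted p = 0.121), and it passed the threshold without Day 12 +Fgf replicate 1 (0.56, adjusted p = 0.0395).

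The co-receptors Boc and Cdon moved in opposite directions. Boc was at 24.9, 27.3 and 31.9 CPM in Day 10, at 23.6, 27.7 and 20.3 CPM in Day 12 +Fgf and at 18.8, 27.5 and 31.9 CPM in Day 15 +Fgf, and these 3 groups overlapped. It was at 42.6, 35.6 and 37.4 CPM in Day 12 +Wnt and at 49.6, 51.4 and 53.9 CPM in Day 15 +Wnt, above all libraries of the other groups and without overlap between the days. Boc was 1.62-fold lower in +Fgf than in +Wnt at Day 12 (log2 difference -0.69 ± 0.15 SE, adjusted p = 0.00113) and 2.02-fold lower at Day 15 (-1.01 ± 0.15, adjusted p = 1.7e-05). The rise from Day 10 to Day 12 in +Wnt was 0.46 (adjusted p = 0.0158), and it missed the threshold without Day 10 replicate 1 (0.38, adjusted p = 0.0679) or Day 12 +Wnt replicate 1 (0.38, adjusted p = 0.0670). With the RNA integrity number (RIN) of the samples as a covariate it was 0.17 (adjusted p = 0.415). The rise between the days in +Wnt was 0.42 (adjusted p = 0.0211), and it missed it without Day 12 +Wnt replicate 2 (0.37) or 3 (0.40) or Day 15 +Wnt replicate 3 (0.39). In +Fgf the change between the days was 0.10 (adjusted p = 0.583). Without Day 15 +Fgf replicate 1, the lowest of the 15 libraries, it was 0.32 (adjusted p = 0.0397).

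Cdon was lower in both +Wnt groups than in the other groups. It was at 261, 310.0 and 280.3 CPM in Day 10, at 327, 321 and 324 CPM in Day 12 +Fgf and at 227, 221 and 251 CPM in Day 15 +Fgf. The +Wnt libraries held 129.9, 139 and 128 CPM at Day 12 and 98.3, 101 and 112 CPM at Day 15. No neighbouring groups overlapped in the order of levels, and all 6 +Wnt libraries lay below the 9 others. Cdon fell 2.14-fold from Day 10 to Day 12 in +Wnt (log2 difference -1.10 ± 0.06 SE, adjusted p = 9.8e-10) and 1.28-fold more by Day 15 (-0.35 ± 0.06, adjusted p = 0.000126). In +Fgf it fell 1.39-fold between the days (-0.48 ± 0.06, adjusted p = 8.23e-06). It was 2.44-fold higher in +Fgf than in +Wnt at Day 12 (adjusted p = 6.77e-11) and 2.24-fold higher at Day 15 (adjusted p = 9.09e-11). The small rise from Day 10 to Day 12 in +Fgf (0.19, adjusted p = 0.0170) was 0.14 without Day 10 replicate 1 (adjusted p = 0.0951) and 0.07 with RIN as a covariate (adjusted p = 0.520). The fall between the days in +Fgf was -0.28 with RIN and missed the threshold (adjusted p = 0.101).

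Gli1, the activator that is itself a target, was highest in Day 15 +Fgf, like Ptch1, and lowest in Day 12 +Fgf. It was at 1.09, 2.41 and 2.14 CPM in Day 10 and at 0.697, 2.1 and 0.575 CPM in Day 12 +Fgf. Day 12 +Wnt held 5.35, 2.37 and 2.98 CPM, and Day 15 +Wnt 3.97, 5.44 and 3.30 CPM. Day 15 +Fgf held 12.6, 11.5 and 7.77 CPM, above the 12 other libraries, and the 4 remaining groups overlapped their neighbours. In +Fgf Gli1 rose 8.36-fold from Day 12 to Day 15 (log2 difference 3.06 ± 0.37 SE, adjusted p = 2.34e-06), the largest change over time in +Fgf among the 7 genes. In +Wnt the change over time was 0.28, with a 95% interval from -0.50 to 1.05 (adjusted p = 0.517). The order of the tissues turned between the days. At Day 12 Gli1 was 2.87-fold lower in +Fgf than in +Wnt (-1.52 ± 0.37, adjusted p = 0.00237), and at Day 15 it was 2.40-fold higher (1.27 ± 0.37, adjusted p = 0.00569). Each Gli1 value rests on few reads, between 9 and 171 per library. The exons of Gli1 overlap those of Gm47200, not analysed here, and of Arhgap9 on the other strand, an entry with 0 to 5 reads per library.

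Against Day 10, Gli1 was 5.11-fold higher in Day 15 +Fgf (log2 difference 2.35 ± 0.37 SE, adjusted p = 2.12e-05) and 2.13-fold higher in Day 15 +Wnt (1.09 ± 0.37, adjusted p = 0.0120). The second of these calls was lost without Day 10 replicate 1 (0.79, adjusted p = 0.0736), without Day 15 +Wnt replicate 2 (0.90, adjusted p = 0.0564) and with quantile normalization (0.25, adjusted p = 0.516) or RIN as a covariate (1.02, adjusted p = 0.0783). At Day 12 neither difference from Day 10 passed the threshold. In +Fgf it was -0.71 (adjusted p = 0.111), and it passed without Day 10 replicate 1 (-1.01, adjusted p = 0.0401) or Day 12 +Fgf replicate 2 (-1.16, adjusted p = 0.00791). In +Wnt it was 0.81 (adjusted p = 0.0665), and it passed without Day 12 +Wnt replicate 2 (1.04, adjusted p = 0.0394) or in a fit to the libraries of the compared groups alone (0.81, adjusted p = 0.0438).

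Gli3, which mainly represses targets, fell in both tissues, earlier in +Fgf. It was at 137, 163 and 150.1 CPM in Day 10 and at 170.3, 149 and 167 CPM in Day 12 +Wnt, groups that overlapped. Day 12 +Fgf held 84.4, 94.8 and 74.7 CPM and Day 15 +Wnt 65.1, 80.2 and 69.4 CPM, which overlapped too. Day 15 +Fgf held 51.5, 54.4 and 52.0 CPM, below all others. In +Fgf Gli3 fell 1.77-fold from Day 10 to Day 12 (log2 difference -0.83 ± 0.09 SE, adjusted p = 9.29e-07) and 1.60-fold more by Day 15 (-0.67 ± 0.09, adjusted p = 6.41e-06). With RIN as a covariate the second fall was -0.43 and missed the threshold (adjusted p = 0.0752). In +Wnt the difference between Day 10 and Day 12 was 0.11 (95% interval -0.07 to 0.30, adjusted p = 0.283), or 0.21 with quantile normalization (adjusted p = 0.0412), and the level then fell 2.26-fold by Day 15 (-1.18 ± 0.09, adjusted p = 5.48e-09). Gli3 was 1.92-fold lower in +Fgf than in +Wnt at Day 12 (adjusted p = 1.5e-07) and 1.35-fold lower at Day 15 (adjusted p = 0.000334).

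Gli2, the main primary activator, showed the smallest range of the 7 genes, 0.60 on the log2 scale between the lowest and the highest group mean. It was at 60.6, 58.8 and 54.4 CPM in Day 10, at 45.2, 46.9 and 38.3 CPM in Day 12 +Fgf and at 41.1, 45.3 and 41.0 CPM in Day 15 +Fgf. The +Wnt libraries held 71.3, 61.5 and 61.5 CPM at Day 12 and 50.5, 53.8 and 47.0 CPM at Day 15. The 2 +Fgf groups overlapped each other and lay below the 9 other libraries, although Day 12 +Fgf replicate 2 came close to the lowest Day 15 +Wnt library. In +Fgf Gli2 fell 1.33-fold from Day 10 to Day 12 (log2 difference -0.42 ± 0.08 SE, adjusted p = 0.000419) and differed by -0.03 between the days (adjusted p = 0.778). In +Wnt it fell 1.28-fold from Day 12 to Day 15 (-0.36 ± 0.08, adjusted p = 0.000971). It was 1.49-fold lower in +Fgf than in +Wnt at Day 12 (adjusted p = 1.83e-05) and 1.19-fold lower at Day 15 (adjusted p = 0.0137), a call lost without Day 15 +Wnt replicate 2 (-0.20, adjusted p = 0.0650). The call against Day 10 in Day 15 +Wnt (-0.20, adjusted p = 0.0336) was lost without Day 10 replicate 1 (-0.17) or 2 (-0.19), or without Day 15 +Wnt replicate 1 (-0.20) or 3 (-0.15). It was also lost with quantile normalization (-0.11, adjusted p = 0.241), median-of-ratios scaling (-0.17, adjusted p = 0.0699), moderation without a trend (-0.20, adjusted p = 0.0538) and RIN as a covariate (-0.22, adjusted p = 0.0879).

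**Figure D2:**
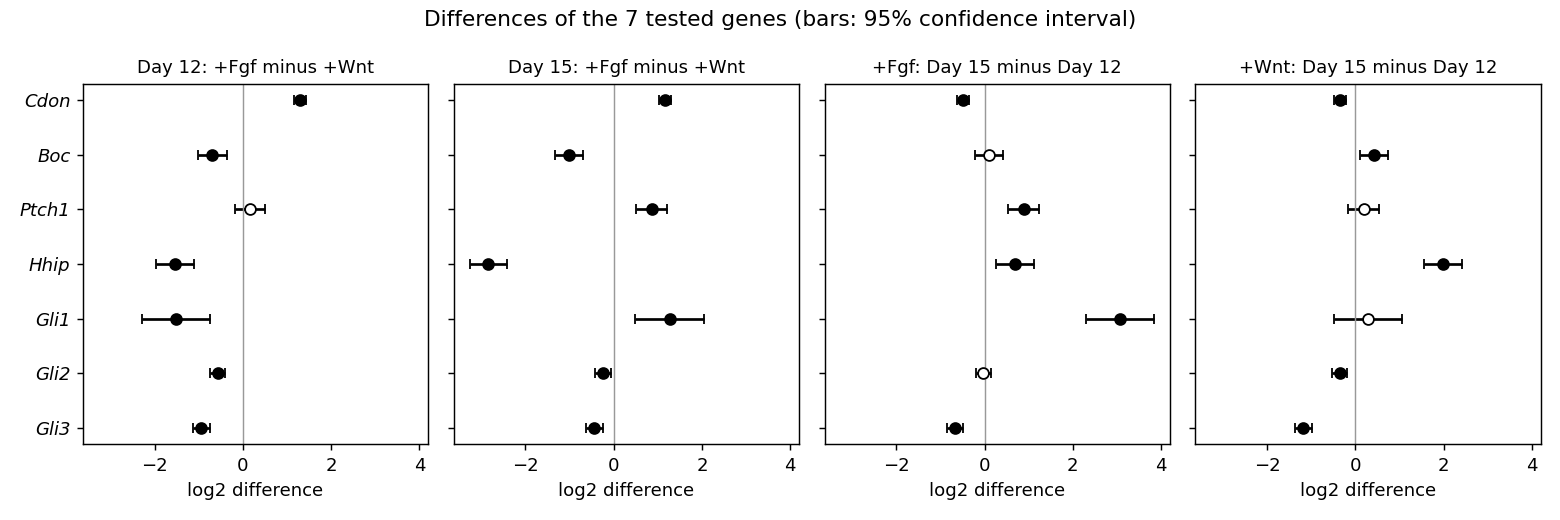
Log2 differences of the 7 tested genes (horizontal axes) for +Fgf minus +Wnt at Day 12 and Day 15 and for Day 15 minus Day 12 in each tissue, with 95% confidence intervals, filled where the adjusted p was under 0.05 and open where it was not. Gli1 lies at -1.52 at Day 12 and at 1.27 at Day 15 in the comparison of the tissues, and Hhip at -1.54 and -2.84.

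Side by side at Day 15, Gli1, Ptch1 and Cdon were higher in +Fgf and Hhip, Boc, Gli3 and Gli2 were higher in +Wnt. Over all entries tested 38.0% were called higher in +Fgf and 30.6% lower. At Day 12 Cdon was higher in +Fgf and Hhip, Gli1, Gli3, Boc and Gli2 were lower, against 26.3% higher and 25.2% lower over all entries. Between the tissues at Day 15 the classical targets thus did not move as 1 group. Gli1 and Ptch1 were higher and Hhip was lower in +Fgf. Against Day 10, all 3 were nonetheless higher in Day 15 +Fgf. The log2 difference was 2.35 for Gli1, 1.11 for Ptch1 (adjusted p = 1.14e-05) and 1.07 for Hhip (adjusted p = 0.000168). For Day 15 +Wnt it was 1.09, 0.25 (adjusted p = 0.166) and 3.90. In a test of whether the change from Day 12 to Day 15 differed between the tissues, 5 of 7 genes were called, against 47.9% of all entries. The difference was 2.79 ± 0.52 for Gli1 (SE, adjusted p = 0.000324), 0.70 ± 0.23 for Ptch1 (adjusted p = 0.0205) and 0.50 ± 0.12 for Gli3 (adjusted p = 0.00327), in each case a larger rise or a smaller fall in +Fgf. It was 0.33 ± 0.12 for Gli2 (adjusted p = 0.0278) and -1.29 ± 0.29 for Hhip (adjusted p = 0.00140). For Boc it was -0.32, with a 95% interval from -0.77 to 0.14 (adjusted p = 0.238), and for Cdon -0.13, with an interval from -0.32 to 0.06 (adjusted p = 0.262). The call of Ptch1 was lost without Day 12 +Wnt replicate 1 (0.51), Day 15 +Fgf replicate 2 (0.63) or Day 15 +Wnt replicate 1 (0.60), and with RIN as a covariate (1.00, adjusted p = 0.0578). That of Gli2 was lost without Day 12 +Fgf replicate 3 (0.24), Day 12 +Wnt replicate 1 (0.26), Day 15 +Fgf replicate 2 (0.28) or Day 15 +Wnt replicate 3 (0.28), with quantile normalization (0.26, adjusted p = 0.0843) and with RIN (0.37, adjusted p = 0.171).

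RNA integrity moved with these groups. The RIN of the Day 15 +Fgf samples, as listed in the study, was the lowest of the 5 groups on average. With RIN as a covariate, the Day 15 differences between the tissues kept their direction, and Ptch1, Hhip and Cdon stayed called. Gli1 was then at 1.39 (adjusted p = 0.118), Boc at -0.48 (adjusted p = 0.123), Gli3 at -0.21 (adjusted p = 0.284) and Gli2 at -0.21 (adjusted p = 0.295). From Day 12 to Day 15 in +Fgf, Gli1 and Ptch1 remained called under this covariate, Gli3 and Cdon lost their calls with the values given above, and the rise of Hhip turned to -0.07 (adjusted p = 0.918). In the test of the change over time between the tissues, Gli1, Gli3 and Hhip remained called and Ptch1 and Gli2 did not. From Day 10 to Day 12 in +Fgf, Hhip (0.83, adjusted p = 0.0183) and Boc (-0.59, adjusted p = 0.0217) passed the threshold with RIN.

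**Figure D3:**
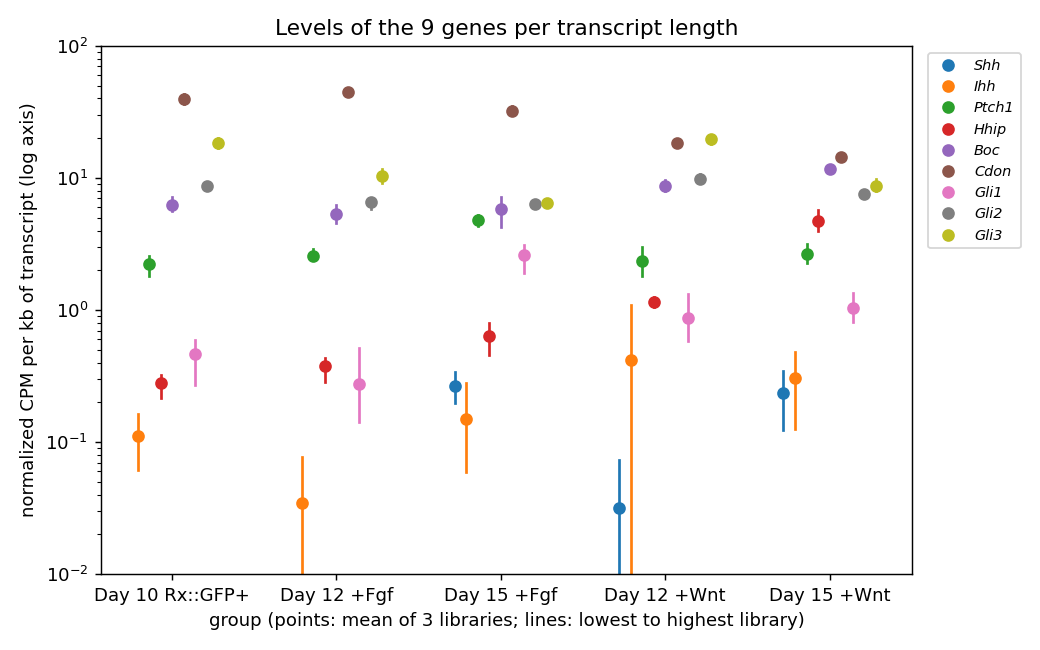
Levels of the 9 genes in CPM per kb of transcript (vertical log axis) in the 5 groups, where points are the mean of 3 libraries and lines run from the lowest to the highest library. Group means at 0 are not drawn, and a line whose lowest library is 0 runs to the bottom of the axis. Cdon is the highest in 4 groups, and Hhip climbs from 0.282 in Day 10 to 4.69 in Day 15 +Wnt.

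Levels were compared between genes per kb of the annotated transcript. Per kb, Cdon was the highest in Day 10 (39.4 ± 3.41 CPM per kb, SD, n = 3), Day 12 +Fgf (44.9 ± 0.387), Day 15 +Fgf (32.3 ± 2.23) and Day 15 +Wnt (14.4 ± 1.02). In Day 12 +Wnt, Gli3 (19.8 ± 1.42) and Cdon (18.4 ± 0.783) overlapped at the top. Gli3 and Gli2 were above Gli1 in all 5 groups. The distance between them was smallest in Day 15 +Fgf, where Gli1 was at 2.62 ± 0.623 CPM per kb and Gli3 at 6.44 ± 0.187, against 0.463 ± 0.172 and 18.4 ± 1.58 in Day 10. In Day 15 +Fgf, Gli3, Gli2, Boc and Ptch1 overlapped in sequence, at 6.44, 6.40, 5.85 and 4.80 CPM per kb. In Day 15 +Wnt, Boc (11.6 ± 0.494) was second, below Cdon and above Gli3 (8.76 ± 0.947), and Hhip (4.69 ± 0.900) was above Ptch1 (2.65 ± 0.472). The ligands were at the bottom in every group, with Shh at 0.265 ± 0.0698 in Day 15 +Fgf and 0.236 ± 0.113 CPM per kb in Day 15 +Wnt. The genes lie on 7 chromosomes of GRCm38, the assembly also called mm10. Shh is at chr5:28456815-28467256, Ptch1 at chr13:63508328-63573598, Hhip at chr8:79965851-80058006, Gli1 at chr10:127329882-127341974 and Gli3 at chr13:15463235-15730026. Ihh and Gli2 lie on chromosome 1, Boc on chromosome 16 and Cdon on chromosome 9, and for these 4 genes and Ptch1 no exon of another gene overlapped theirs. Exons of Gli3 and Hhip overlap those of Gm6556 and Gm27820 on the other strand, which were not analysed here.

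The other genes of the pathway were read from 4 lists of 38 genes, 33 of which were tested. Between +Fgf and +Wnt, 26 of the 33 were called at Day 12 (14 higher and 12 lower in +Fgf), where 51.5% of all entries were called. At Day 15, 22 of the 33 were called (13 higher and 9 lower), near the 68.7% of all entries. Among the 6 tested genes for ligand maturation and release, 6 differed at Day 12 and 3 at Day 15, against the same shares of 51.5% and 68.7%. Scube1, a secreted protein that helps release the ligand, was higher in +Fgf at both days (log2 difference 2.43 and 1.26, adjusted p = 8.33e-12 and 9.02e-09). Its relative Scube2 was lower at both (-1.77 and -1.49, adjusted p = 5.3e-05 and 0.000165), as was Disp2 (-1.75 and -0.85, adjusted p = 1.79e-05 and 0.00614), a relative of the ligand transporter Disp1. At Day 12 Scube1 had means of 146.7 ± 5.23 CPM under Fgf and 27.1 ± 3.43 CPM under Wnt stimulation (SD, n = 3), whereas Scube2 held 5.19 ± 0.409 CPM at most.

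Of 4 receptors and co-receptors outside the 9 genes, 4 were called at Day 15 (68.7% of all entries), 1 higher and 3 lower in +Fgf, with a median log2 difference of -0.53 against 0.05 over all entries. The co-receptor Gas1 was lower in +Fgf at Day 12 (-0.43, adjusted p = 0.000872) and at Day 15 (-0.94, adjusted p = 1.13e-07), like Boc and unlike Cdon. Its mean fell from 325 ± 24.4 CPM in Day 10 to 102 ± 9.04 CPM for Day 15 +Fgf and 197 ± 17.5 CPM for Day 15 +Wnt. Smo, the signal transducer, differed little, by -0.29 at Day 12 (adjusted p = 3.05e-06) and 0.15 at Day 15 (adjusted p = 0.00119). All 16 transduction and cilium genes were tested, and 11 were called at Day 12 and 9 at Day 15, against 51.5% and 68.7% of all entries. Their differences were small, with medians of 0.09 and 0.04 against -0.0021 and 0.05 over all entries, and at Day 15 they ran from -0.40 for Stk36 to 0.48 for Efcab7. Sufu, which holds the Gli proteins in check, was at -0.16 at Day 12 (adjusted p = 0.0181) and at 0.06 at Day 15 (adjusted p = 0.305).

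Of 11 genes known as targets of the pathway in ventral neural tissue or in dividing progenitors, 7 were tested. At Day 15, 6 of the 7 were higher in +Fgf and none was lower, where 38.0% of all entries were higher and 30.6% lower, with a median log2 difference of 3.32 against 0.05 over all entries. Against Day 10, 4 of the 7 were higher and 0 lower in Day 15 +Fgf, where 72.6% of all entries were called in either direction. In Day 15 +Wnt 1 was higher and 5 were lower, where 79.8% were called. Pax2, a factor of optic stalk and ventral retina, had means of 34.7 ± 4.89 CPM under Fgf and 0.681 ± 0.324 CPM under Wnt stimulation (difference 5.21, adjusted p = 1.87e-10). Ccnd1, which encodes cyclin D1, was at 746 ± 27.6 and 42.5 ± 10.4 CPM (4.15, adjusted p = 2.11e-13). Vax2, a ventral retina factor, was 3.32 higher (adjusted p = 1.95e-09) and Olig2, a factor of ventral progenitors, 4.08 higher (adjusted p = 2.04e-07). In Day 10 Pax2 was at 25.2 ± 3.67 CPM and Vax2 at 41.2 ± 7.62 CPM. Neither was called between Day 10 and Day 15 +Fgf (adjusted p = 0.183 and 0.330), and both fell in Day 15 +Wnt. At Day 12, 5 of the 7 were higher and 1, Olig2, lower in +Fgf (-1.69, adjusted p = 0.00282), against 26.3% higher and 25.2% lower over all entries. Of the 7 targets, Olig2 alone was thus called lower in +Fgf at Day 12 and higher at Day 15, like Gli1. At Day 12 Olig2 held only 4 to 14 reads per library in +Fgf and 16 to 60 in +Wnt. Its means were 0.467 ± 0.368 CPM (+Fgf) and 2.25 ± 1.37 CPM (+Wnt) at Day 12, and 21.3 ± 1.92 CPM (+Fgf) and 1.09 ± 0.701 CPM (+Wnt) at Day 15. Of the untested targets, Nkx2-1 was at 1.31 ± 0.468 CPM in Day 15 +Fgf and held at most 3 reads in each library of the other groups, while Nkx2-2 held at most 3 reads in every library.

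**Figure D4:**
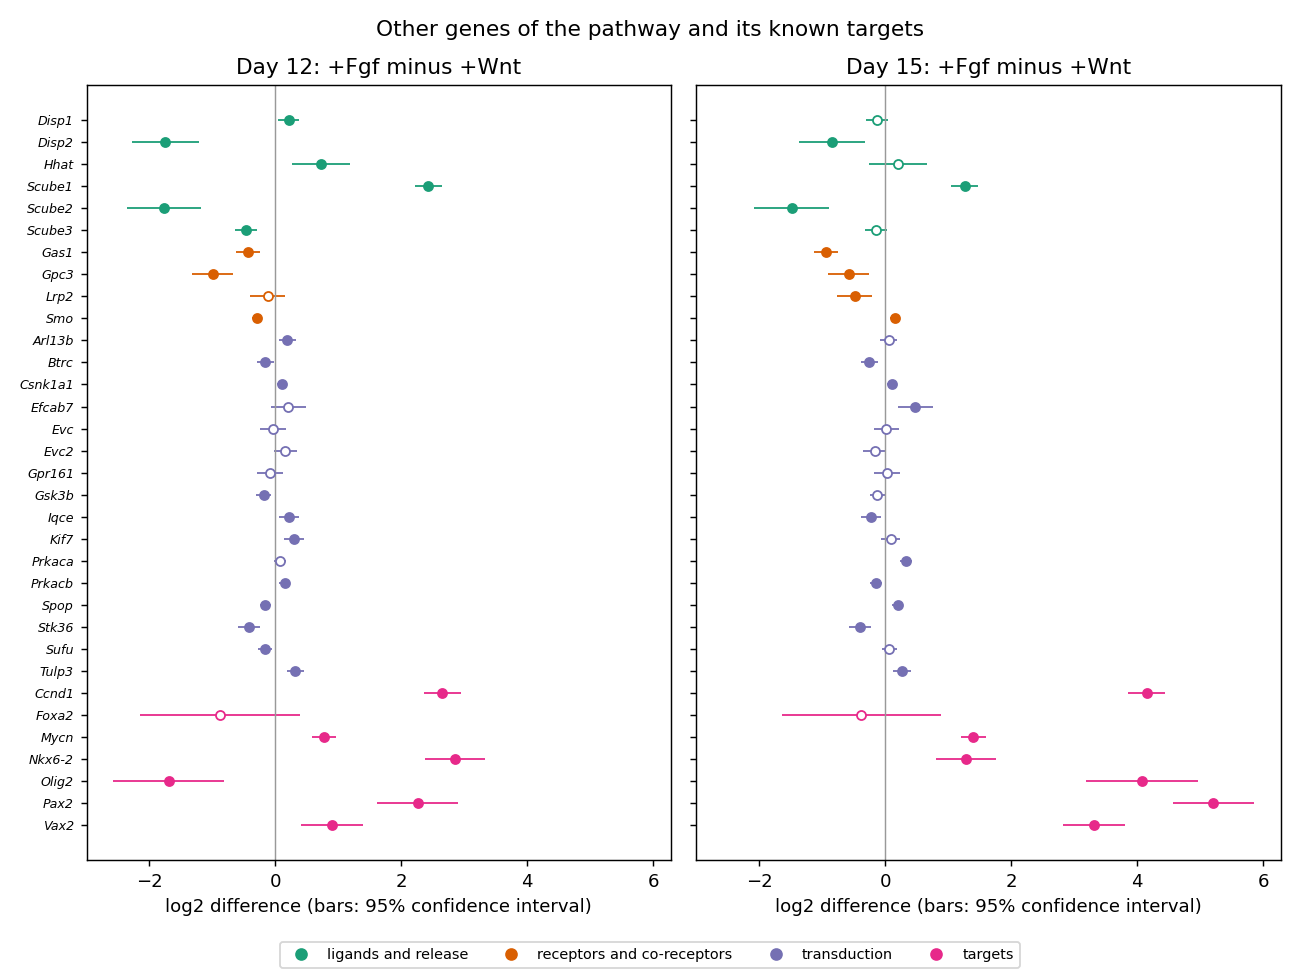
Log2 differences, +Fgf minus +Wnt, at Day 12 and Day 15 (horizontal axes) for the 33 tested genes of 4 further pathway lists, with 95% confidence intervals, filled where the adjusted p was under 0.05. The transduction genes stay between -0.42 and 0.48, whereas Pax2 reaches 5.21 among the targets at Day 15.

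Markers of several cell types moved with the same groups, and their part in these differences was not tested. The sum of 10 retinal ganglion cell markers was 88.7 to 118 CPM in Day 10, 182 to 192 CPM in Day 12 +Fgf, 236 to 342 CPM in Day 12 +Wnt, 1298 to 1494 CPM in Day 15 +Fgf and 635 to 776 CPM in Day 15 +Wnt. At Day 12 this sum joined opposite directions. Among the 9 tested markers, 4 were higher and 5 lower in +Fgf than in +Wnt, against 26.3% and 25.2% of all entries. Pou4f2, Atoh7 and Isl1 held 12.6, 11.9 and 24.0 CPM in Day 12 +Fgf and 0.132, 0.46 and 1.53 CPM in Day 12 +Wnt. Stmn2 and Elavl3 held 30.9 and 28.2 CPM in Day 12 +Fgf and 76.9 and 59.3 CPM in Day 12 +Wnt. Pou4f3 was at 3 reads or fewer in each library of all groups but Day 15 +Fgf, as were Pou4f2 in Day 10 and Atoh7 in Day 15 +Wnt. Of the 9 tested markers, 9 were higher than at Day 10 in Day 15 +Fgf, where 72.6% of all entries were called in either direction. In Day 15 +Wnt 7 were higher and 1 was lower, near the 79.8% of all entries called there. Within the list the levels differed, with Pou4f2 at 82.1 ± 4.80 CPM (+Fgf) and 1.53 ± 0.790 CPM (+Wnt) at Day 15 and Stmn2 at 339 ± 17.0 CPM (+Fgf) and 238 ± 26.0 CPM (+Wnt). The summed neural retina markers, given above, set the same groups apart as Cdon does. The sum of the 9 pigment epithelium markers was 843 to 1185 CPM in Day 10, 264 to 302 CPM in Day 12 +Fgf and 1150 to 1557 CPM in Day 12 +Wnt. Pmel alone had means of 560, 121 and 717 CPM in these groups. The 4 markers of dividing cells summed to 1150 to 1279 CPM in Day 10, to 1397 to 1445 CPM in Day 12 +Wnt and to 1760.1 to 1910 CPM in Day 12 +Fgf. They summed to 1692 to 1797 CPM in Day 15 +Fgf and to 605 to 631 CPM in Day 15 +Wnt. The sum of 6 mesenchyme markers was 237 to 292 CPM in Day 15 +Wnt, where Hhip and Boc were highest, and 49.4 to 157 CPM in the other groups. At Day 12 the order of this sum was the reverse of that of Hhip and Boc, with 125 to 157 CPM in +Fgf and 78.2 to 91.7 CPM in +Wnt. Its single markers were split. Col1a1 (23.9 and 3.06 CPM) and Col1a2 (63.3 and 12.4 CPM) had higher means in +Fgf. Prrx1 (34.8 and 43.8 CPM), Twist1 (8.11 and 10.7 CPM) and Pdgfra (4.82 and 12.0 CPM) had lower means, and Foxc1 was at 1.51 and 1.47 CPM. Of the 6, 2 were called higher and 2 lower in +Fgf, against 26.3% and 25.2% of all entries. The 6 endothelial markers summed to 216 to 267 CPM in Day 15 +Fgf and to 21.2 to 28.1 CPM in Day 15 +Wnt, and Kdr alone made up 248 ± 27.9 and 18.3 ± 3.78 CPM of this. Among them, Cdh5, Tie1 and Emcn were at 3 reads or fewer in each library of all groups but Day 12 +Fgf, where Emcn was. The 4 choroid plexus markers summed to 860.0 to 1363 CPM in Day 15 +Wnt and to 15.3 to 165 CPM in the other groups. Ttr alone made up 929 ± 263 CPM of this in Day 15 +Wnt, where Clic6 was at 77.9, Folr1 at 41.6 and Kl at 0.287 CPM. In Day 12 +Wnt Clic6 was already at 71.9 CPM. The 4 photoreceptor markers summed to 95.3 to 119 CPM in Day 15 +Fgf and to 1.52 to 10.3 CPM elsewhere, with Rcvrn at 3 reads or fewer in every library. Crx alone made up 103 ± 12.1 CPM of the sum in Day 15 +Fgf.

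For each of the 6 tested genes whose group means spanned at least 1 on the log2 scale, the entries most like it were those with the smallest root mean square (RMS) difference between centred log2 values over the 15 libraries. For Ptch1 they were Rnf165 (RMS difference 0.148), Rsbn1 (0.163) and A130049A11Rik (0.182). For Hhip they were Aifm3 (0.352), Enpp5 (0.379) and Bai1 (0.402). Boc was followed most closely by Slc22a23 (0.182), Ncald (0.190) and Bzrap1 (0.191). Cdon was followed by Prdx6 (0.121), Sox2 (0.143), a transcription factor of neural progenitors, and Sfr1 (0.150). Sox2 was at 242 CPM in Day 10, 267 and 242 CPM in Day 12 and Day 15 +Fgf, and 109 and 94.4 CPM in Day 12 and Day 15 +Wnt. For Gli1 the differences were larger, 0.454 for Dlc1, 0.459 for Egflam and 0.468 for Pou3f2, and for Gli3 they were 0.166 for Zswim5, 0.180 for Fam117a and 0.209 for Galnt16. None of the 9 Hedgehog pathway genes was among the 3 entries most like another of them. With only 3 entries taken from the 13845 tested, this says little on whether the members vary together.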

How the data were processed

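RNA-Seq values of 15 libraries in 5 groups of 3 were used. The authors mapped the reads to mm10 with TopHat2 (2.0.8b), estimated fragments per gene with Cuffdiff (Cufflinks 2.1.1) and deposited normalized values from edgeR (3.2.4), a signal they call CPM. Column sums of 936418 to 1075448 show scaled library sizes. All deposited non-zero values (100%) were whole multiples of 1 read, within 0.01 of a read, and counts of reads were recovered from them. The strand setting is not given in the sources used here.

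Entries that reached 1 CPM of the library's total in 3 libraries (13845) were fitted with limma (3.58.1, R 4.3.3; trend, Benjamini-Hochberg, two-sided, threshold 0.05). The members, lists and tests were chosen with earlier results of these data known. The lists name 38 further pathway genes and 8 sets of markers, and 2 genes listed at first are not reported here. All 9 members are named, with genes at the top or bottom of a list by size of difference. The 3 entries most like a member come from symbols of 1 entry. Alternatives were the pseudocount (0.05, 1), the filter (none, 10 CPM), scaling, trend, RIN, replicate block, only the groups compared, single libraries left out, and edgeR's quasi-likelihood test (4.0.16) on the recovered reads, which called 6470 to 11040 entries per comparison (limma 6636 to 11046). Precision is set by 3 replicates and by depth, 95% intervals come from the limma fit and hold the spread between libraries, and floors of 3 reads cover counting error only. Exon overlaps, positions and transcript lengths came from GENCODE (GRCm38), promoters from RefSeq.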

Additional observations from a re-analysis of the deposited data

Results flagged for a closer look

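For 5 of the 7 tested genes the change from Day 12 to Day 15 differed between +Fgf and +Wnt in the interaction term of the limma fit. The difference of the changes on the log2 scale was 2.79 for Gli1 (3.06 in +Fgf and 0.28 in +Wnt), 0.70 for Ptch1 (0.88 and 0.19), 0.50 for Gli3 (-0.67 and -1.18), 0.33 for Gli2 (-0.03 and -0.36) and -1.29 for Hhip (0.68 and 1.98). Their adjusted p-values were between 0.000324 for Gli1 and 0.0278 for Gli2, and 47.9% of all entries tested were called in this term.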

How the results depend on the processing

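The count of members called moved by over 1.5 times with RIN as a covariate, from 5 to 2 for Day 15 +Fgf against Day 12 +Fgf, from 7 to 3 for Day 15 +Fgf against Day 15 +Wnt and from 5 to 3 for the interaction. Over all entries the same covariate moved the calls from 7899 to 3591 for Day 15 +Fgf against Day 12 +Fgf and from 6636 to 3842 for the interaction. The cause was not tested. With RIN the rise of Hhip from Day 12 to Day 15 in +Fgf reversed to -0.066 (adjusted p = 0.918). With single libraries left out, the count was 3 to 5 for the interaction (3 without Day 12 +Wnt replicate 1 or Day 15 +Fgf replicate 2), 4 to 6 for the change between the days in either tissue and for Day 15 +Wnt against Day 10, 6 to 7 between the tissues at Day 15 and 6 at Day 12, 6 for Day 15 +Fgf against Day 10, and 3 to 4 (+Fgf) and 2 to 4 (+Wnt) for Day 12 against Day 10. Of the differences of single genes under the alternatives, 1053 kept their direction and side of the threshold, 40 lost it, 10 passed it and 1 reversed. Quantile normalization shifted the median of all entries by -0.10 in Day 15 +Wnt against Day 10. The filter of 10 CPM left no value for Gli1. Replicate numbers did not pair the samples (correlations of deviations -0.25 to 0.24, 13 of 30 positive), and the replicate block left the count of the interaction at 5 and changed no call of a member.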
